A study of Homo sapiens with 9 samples.

Results

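The genes described here are 10 members of the integrated stress response, read in the human neuroblastoma line SK-N-AS. They are ATF4, DDIT3 (which encodes CHOP), CEBPB, TRIB3, PPP1R15A, CHAC1, ASNS, PSAT1, SESN2 and DDIT4. They were picked by name, with earlier results of these data known. Every probe set that the array's annotation assigns to 1 of them was taken, which gave 15 of 54675 probe sets and 10 of 19775 genes. All 10 genes, and 14 of their 15 probe sets, passed the filter on low signal that left 13804 genes. Each gene is read through its probe set with the highest mean signal. Full-length human NRSF was expressed from the RE-EX1 construct in the first series of arrays, truncated NRSF was expressed from the HZ4 construct in the second, and the third was untreated. NRSF, also called REST, is a repressor of neuronal genes. Each series has 1 array at 0 h, 1 at 24 h and 1 at 48 h, 9 arrays in all, and the 0 h arrays are the baseline of their own series. All groups share the medium, DMEM with serum, antibiotics, non-essential amino acids and L-glutamine, and no cells given an empty construct were analysed here. How the constructs were delivered, and whether the medium was renewed during the 48 h, is not stated in the labels.

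The integrated stress response starts when a kinase phosphorylates the translation factor eIF2 on its alpha subunit. Amino acid shortage, unfolded protein in the endoplasmic reticulum, haem shortage and double-stranded RNA each act through a kinase of their own. Most translation then falls, while ATF4 is translated more. ATF4 is a bZIP transcription factor that pairs with C/EBP proteins on C/EBP-ATF response elements (CARE) and raises genes of amino acid synthesis, amino acid uptake and redox balance. DDIT3 follows in a longer response, and PPP1R15A ends it by bringing a phosphatase back to eIF2. Arrays read RNA only, so neither eIF2 phosphorylation nor ATF4 protein was measured.

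Promoters of 3 members are shown because their 250 bases upstream of a RefSeq transcription start hold a perfect match to an element through which bZIP factors of this response bind DNA. ASNS and PPP1R15A are among the genes that rose at 24 h below, and CHAC1 is the gene that was not called. Each runs 5′ to 3′ on the gene's strand, from RefSeq for GRCh38.p14, with the matched letters in capitals.
ASNS, chr7:97872409-97872658, minus strand: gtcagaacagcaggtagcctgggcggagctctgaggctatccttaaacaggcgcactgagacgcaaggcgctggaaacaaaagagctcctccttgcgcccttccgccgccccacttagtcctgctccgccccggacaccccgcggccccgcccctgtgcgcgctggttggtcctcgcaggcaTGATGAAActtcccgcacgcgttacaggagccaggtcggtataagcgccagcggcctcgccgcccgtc
CHAC1, chr15:40953221-40953470, plus strand: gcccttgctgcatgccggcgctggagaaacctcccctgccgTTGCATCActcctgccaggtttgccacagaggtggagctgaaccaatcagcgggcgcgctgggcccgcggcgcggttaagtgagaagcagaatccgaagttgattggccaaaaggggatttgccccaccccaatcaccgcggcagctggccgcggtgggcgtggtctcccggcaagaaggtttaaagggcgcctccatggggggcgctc
PPP1R15A, chr19:48872171-48872420, plus strand: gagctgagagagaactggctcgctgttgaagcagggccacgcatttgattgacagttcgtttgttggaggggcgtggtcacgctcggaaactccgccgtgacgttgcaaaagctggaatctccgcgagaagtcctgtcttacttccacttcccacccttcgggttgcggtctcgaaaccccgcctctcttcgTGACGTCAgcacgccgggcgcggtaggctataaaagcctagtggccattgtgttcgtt
The motif searched in ASNS and CHAC1 was CARE, spelled TGATGNAA or TTNCATCA, which are the same element on the opposite strands. ASNS held it 68 to 61 bases before its start, and CHAC1 held it 209 to 202 bases before its start. The ASNS window lies inside the annotated ASNS locus, before 1 of its RefSeq starts. PPP1R15A held the cAMP response element, spelled TGACGTCA, which reads the same on both strands, 58 to 51 bases before its start. These letters did not overlap in the windows shown. All 10 genes had a promoter window, and some had several, 16 in all. CARE was in 2 of the 10 and in 3.89% of all 27305 genes with windows of that length, and the cAMP response element was in 1 of the 10 and in 2.03% of those genes. The CCAAT box, spelled CCAAT or ATTGG, was in 6 of the 10 genes, and in 37% of all genes with a window. By window, CARE was in 2 of these 16, against 3.14% of all 35116 windows. The cAMP response element was in 1 of 16 (1.65% of all), and the CCAAT box in 7 of 16 (32% of all). A match is a description of the letters in this window, and binding was not measured. Sequence outside these windows was not searched, so a gene without a match here may hold one elsewhere.

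Across the 9 arrays the median signal lay between 30.87 and 42.67. The truncated NRSF 24 h array stood apart in correlation: its median correlation with the other arrays, across genes, was 0.909, against 0.922 to 0.931 for the other 8. The ratio of 3′ to 5′ signal of the ACTB control probe sets also differed between arrays. It was highest, at 4.187, on the full-length 0 h array, the baseline of that series, against 2.251 (truncated) and 2.724 (untreated) at 0 h. The part of this in the results below was not tested. REST itself, read by 1 probe set, had signals of 268.3 and 273.5 in the full-length series at 24 and 48 h and 323.1 and 341.6 in the truncated series, against 444.7 and 260.3 in untreated cells and 162 to 177.2 on the 0 h arrays. Whether that probe set reads the constructs' RNA is not known. Summed signals of cell type markers moved with time as well. The 10 mesenchymal markers summed to 22410 to 26680 at 24 h and 26490 to 31870 at 48 h, against 31150 to 36950 at 0 h, and none was at the detection floor. Most of that sum is VIM, COL1A1, PRRX1 and CD44, and not all markers moved with it. FOSL1 read 604.9 to 752 at 24 h, against 203.2 to 269.6 at 0 h, and SNAI2 read 1396 to 1499 at 24 h, against 497.5 to 706 at 0 h. CD44, at 3906 to 4876 at 24 h against 3953 to 4275 at 0 h, overlapped. The 4 blood markers read here summed to 153.2 to 232.2 at 24 h and 188.5 to 234.6 at 48 h, against 134 to 145.3 at 0 h, with CD3E at or below the floor on 5 arrays and CD14 on 4. PTPRC was the highest of the 4 on every array, at 57.78 to 106.9 at 0 h and 134.6 to 175.4 at 48 h. HBB, at 15.28 to 33.95 at 0 h and 17.36 to 43.93 at 48 h, overlapped. Sympathoadrenal, epithelial and endothelial sums overlapped between 0 and 24 h, and TH and DBH, which define noradrenergic cells, were at or below the floor on 2 and 5 arrays. The part of these shifts in the results below was not tested, and in bulk RNA fewer cells of a type and less RNA per cell cannot be told apart.

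In SK-N-AS cells, 9 members rose at 24 h across the full-length, truncated and untreated series. The fit compared 24 h with 0 h across the 3 series with limma, and called 9 of 10 members higher at an adjusted p under 0.05, and CHAC1 was not called. Of all 13804 genes, 8.04% were called higher and 8.2% lower. Changes of the 10 members ran between 0.46 and 2.54 on the log2 scale with a median of 0.91, beside a median of -0.03 over all genes. At 48 h, 5 of 10 were still called higher than at 0 h, where 4.5% of all genes were called higher and 3.88% lower, and the members' median was 0.67, beside -0.01 over all genes. From 24 to 48 h, 5 members were called lower, where 1.78% of all genes were, with a median of -0.69, beside 0.01 over all genes. Since each group is 1 array, and nothing says that separate cultures stand behind them, the p-values speak only to the spread among these 9 arrays.

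**Figure D1:**
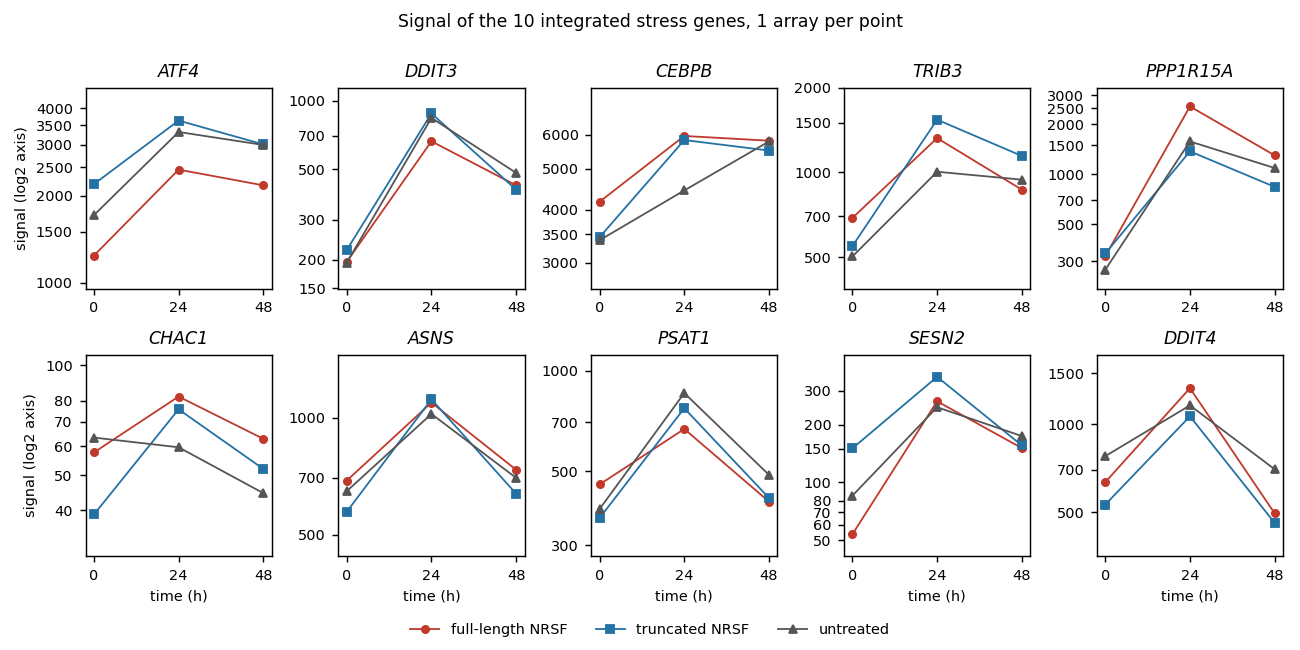
Signal of each gene by time in hours, on a log2 axis, with 1 array per point and a line for each series (red circles full-length NRSF, blue squares truncated NRSF, grey triangles untreated). In 8 of the 10 genes the 24 h array is the highest of each series. The exceptions are CEBPB, highest at 48 h in untreated cells, and CHAC1, highest at 0 h in untreated cells.

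ATF4, at chr22:39520559-39522686 (GRCh38.p14, as for the loci below), is the transcription factor at the centre of the response. Its signal at 0, 24 and 48 h was 1241, 2457 and 2169 in the full-length series, and 2190, 3629 and 3003 in the truncated series. Untreated cells read 1712, 3314 and 2990. Every series was highest at 24 h, and the 24 h arrays lay above all 0 h arrays, but the truncated 0 h array was above the full-length 48 h array. ATF4 RNA rose by 0.89 ± 0.13 log2 at 24 h (SE, 3 series, adjusted p = 0.00029) and by 0.69 at 48 h (adjusted p = 0.0048). The difference between 48 and 24 h was -0.20 (95% interval -0.48 to 0.08) and was not called. The 48 h call was lost without the full-length series (adjusted p = 0.083) and without the untreated series (0.066).

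DDIT3, at chr12:57516588-57520517, encodes CHOP, a C/EBP-family factor that ATF4 induces and that raises genes of cell death and of recovery of translation. It read 196.3, 663.1 and 424.8 at 0, 24 and 48 h in the full-length series. The truncated series read 221.1, 878.6 and 407, and untreated cells read 194.4, 840.1 and 482. The 3 times did not overlap: every 24 h array was above every 48 h array, and every 48 h array above every 0 h array. DDIT3 rose 3.87-fold at 24 h (1.95 ± 0.17 log2, adjusted p = 1.6e-06), rank 115 of 13804 genes, and stood 2.15-fold above 0 h at 48 h (1.10 log2, adjusted p = 0.00097). It fell by 0.85 log2 between 24 and 48 h (adjusted p = 0.011), a call lost when any 1 of the 3 series was left out (adjusted p of 0.08 without full-length, 0.094 without truncated and 0.073 without untreated) and without the truncated 24 h array (0.069).

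CEBPB, at chr20:50190583-50192690, encodes a C/EBP partner of ATF4. Over 0, 24 and 48 h it read 4178, 5967 and 5815 for the full-length construct, 3448, 5836 and 5513 for the truncated construct, and untreated cells 3392, 4441 and 5791. Both construct series were highest at 24 h and untreated cells at 48 h, and the lowest 24 h array stood only slightly above the highest 0 h array. The rise was 0.55 ± 0.14 log2 at 24 h (adjusted p = 0.013) and 0.64 at 48 h (adjusted p = 0.010). Its 24 h call was lost without the full-length series (adjusted p = 0.068), without the truncated series (0.14) and without the truncated 24 h array (0.089), and its 48 h call was lost when any 1 series was left out (0.062 without full-length, 0.060 without truncated, 0.10 without untreated).

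PPP1R15A and TRIB3 act back on the response. PPP1R15A, at chr19:48872421-48876058, encodes GADD34, which directs a phosphatase to eIF2 alpha. Over 0, 24 and 48 h it read 321.6, 2565 and 1302 for the full-length construct, 333.3, 1376 and 840.5 for the truncated construct, and untreated cells 266.2, 1578 and 1092. All 0 h arrays lay below all others, while 24 and 48 h came near each other, since the lowest 24 h array read 1376 and the highest 48 h array 1302. PPP1R15A had the largest change of the 10 genes: 5.80-fold at 24 h (2.54 ± 0.17 log2, adjusted p = 9.5e-08), rank 29 of 13804 genes. It remained 3.47-fold above 0 h at 48 h (1.80 log2, adjusted p = 1.6e-05), and between 24 and 48 h it fell by 0.74 log2 (adjusted p = 0.026). That fall was not called without the full-length series (adjusted p = 0.20) or without the untreated series (0.079).

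TRIB3, at chr20:380760-397559, encodes a pseudokinase that ATF4 and CHOP induce and that holds ATF4 and AKT in check. The full-length series read 690.4, 1324 and 869.5 at 0, 24 and 48 h, the truncated series 548.6, 1539 and 1145, and untreated cells 503.8, 1006 and 943.2. Neither the 24 h nor the 48 h arrays overlapped the 0 h arrays, while 24 and 48 h overlapped each other. TRIB3 rose by 1.14 ± 0.16 log2 at 24 h (adjusted p = 0.00018) and by 0.77 at 48 h (adjusted p = 0.0083). Its 48 h call was lost without the truncated series (adjusted p = 0.062) and without the untreated series (0.071).

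CHAC1, at chr15:40953471-40956512, encodes an enzyme that breaks down glutathione and is a target of ATF4. It was the member that was not called at any time. At 0, 24 and 48 h it read 57.67, 82.04 and 62.85 in the full-length series, and 38.99, 75.69 and 51.98 in the truncated series. Untreated cells read 63.33, 59.57 and 44.62. Both construct series were highest at 24 h, untreated cells were highest at 0 h, and the 3 times overlapped. The 24 h difference was 0.46 ± 0.41 log2 (95% interval -0.40 to 1.32, adjusted p = 0.51), an interval that also covers the changes of most of the other members. All 9 values lay above the floor of 8.266, but its fitted SE was the widest of the 10 genes.

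ASNS and PSAT1 encode enzymes of amino acid synthesis: asparagine synthetase, and the aminotransferase of the serine pathway. ASNS, at chr7:97851677-97928441, read 689.2, 1093 and 734.8 at 0, 24 and 48 h in the full-length series, and 573.5, 1114 and 637.9 in the truncated series. Untreated cells read 647.6, 1022 and 700.5. The 24 h arrays, at 1022 to 1114, lay above all other arrays, and the 48 h arrays overlapped the 0 h arrays. ASNS rose by 0.76 ± 0.14 log2 at 24 h (adjusted p = 0.0017), or by 0.38 and not called (adjusted p = 0.32) with the mean of its probe sets, 1 of which is at the floor. It fell by 0.64 log2 between 24 and 48 h (adjusted p = 0.020). At 48 h its difference from 0 h was 0.12 log2 (95% interval -0.18 to 0.42, adjusted p = 0.68). PSAT1, at chr9:78297125-78330093, read 456.2, 668.7 and 405.5 in the full-length series, and 362.1, 771.3 and 415.8 in the truncated series. Untreated cells read 385.2, 856.4 and 487.5. Here too the 24 h arrays lay above all others and 48 h overlapped 0 h. PSAT1 rose by 0.93 ± 0.17 log2 at 24 h (adjusted p = 0.0012) and fell by 0.81 log2 between 24 and 48 h (adjusted p = 0.013), with a 48 h difference of 0.12 from 0 h (95% interval -0.23 to 0.47, adjusted p = 0.72). The falls of both genes after 24 h were lost when any 1 series was left out (adjusted p of ASNS 0.13, 0.13 and 0.11 and of PSAT1 0.084, 0.072 and 0.09 without the full-length, truncated and untreated series) and without the truncated 24 h array (0.12 and 0.071).

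SESN2 and DDIT4 encode restraints on the growth kinase mTORC1. SESN2, at chr1:28259518-28282491, encodes sestrin 2, a leucine sensor. It read 53.69, 264.4 and 150.9 at 0, 24 and 48 h in the full-length series, and 150.4, 354.5 and 155.9 in the truncated series. Untreated cells read 85.27, 246.2 and 174.3. The 0 h arrays spread widely, and the lowest 24 h array still exceeded the highest array of the other times. SESN2 rose by 1.69 ± 0.28 log2 at 24 h (adjusted p = 0.00067), while the 48 h difference of 0.86 (95% interval 0.27 to 1.45, adjusted p = 0.069) was not called. That 48 h value was 1.26 and called without the truncated series (adjusted p = 0.032), and 0.54 without the full-length series (0.43). DDIT4, at chr10:72273924-72276036, encodes REDD1, which acts through the TSC complex. It read 634.4, 1332 and 496.3 in the full-length series, and 531.4, 1067 and 460 in the truncated series. Untreated cells read 778.8, 1163 and 702.5. Each series peaked at 24 h and ended below its own 0 h array. The rise at 24 h was 0.88 ± 0.16 log2 (adjusted p = 0.0012), and DDIT4 then fell by 1.12 log2 between 24 and 48 h (adjusted p = 0.00077). Its 48 h difference from 0 h was -0.24 (95% interval -0.57 to 0.10, adjusted p = 0.41). Without the full-length series, the fall had an adjusted p of 0.060.

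**Figure D2:**
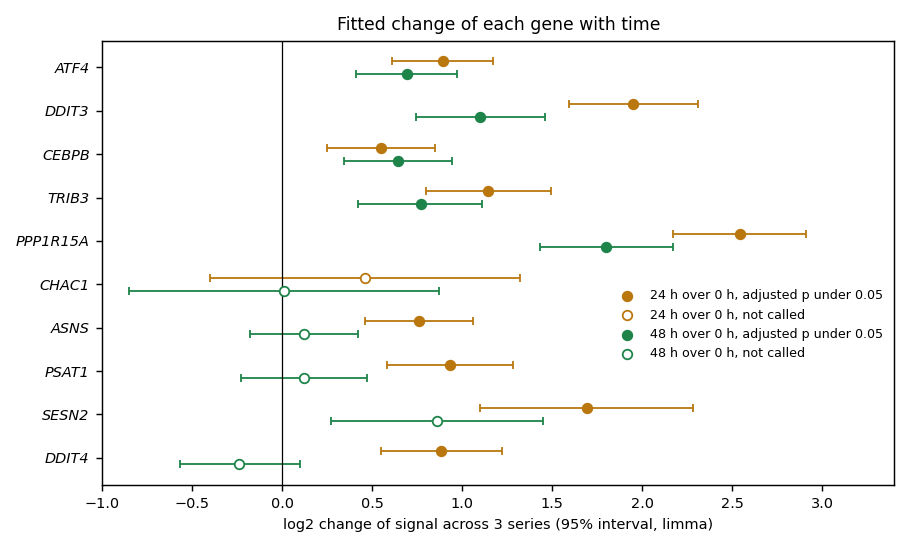
Fitted log2 change of each gene over 0 h (x axis) with its 95% interval from limma across the 3 series, at 24 h (ochre) and 48 h (green). Filled points passed an adjusted p under 0.05. The plot has 9 genes filled at 24 h and 5 at 48 h, and DDIT4 is the member whose 48 h value lies left of 0.

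By time course the genes differed in whether they were still called at 48 h. ATF4, DDIT3, CEBPB, TRIB3 and PPP1R15A were called higher than at 0 h at both times. ASNS, PSAT1, SESN2 and DDIT4 were called at 24 h and not at 48 h, and of these only SESN2 had a 48 h interval that lay wholly above 0. SESN2's 48 h difference, 0.86, was larger than those of ATF4 (0.69), TRIB3 (0.77) and CEBPB (0.64), which were called. Differences between genes were not tested. The 48 h count depended on single series: it was 3 without the full-length series, 4 without the truncated series and 2 without the untreated series. The count of members lower at 48 h than at 24 h was 0 without the full-length series (6 at an unadjusted p under 0.05, limma), 2 without the truncated series, 1 without the untreated series, and 2 without the truncated 24 h array. At 24 h the count was 8, 8 and 9 without the full-length, truncated and untreated series, and 8 without the truncated 24 h array. Without limma's variance trend, which lets genes of like signal share an estimate of spread, it was 5 at 24 h. Under that setting the 48 h count and the count of falls after 24 h were both 0. With no filter these 2 counts were 3 and 0. Without regard to a test, the 24 h arrays all exceeded the 0 h arrays in 9 members, as in 14.3% of all genes. The 48 h arrays all exceeded the 0 h arrays in 5 members (13.5% of all genes) and lay below all 24 h arrays in 6 (10.5%). In 8 members, 24 h was the highest time of every series, as in 9.94% of all genes.

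Other probe sets of the same genes had 24 h differences of the same sign where they had signal. The second PPP1R15A probe set read 119, 1183 and 1207 at 0, 24 and 48 h in the full-length series, and 148.5, 1097 and 452.9 in the truncated series. Untreated cells read 73.91, 1143 and 610.2, and its full-length 48 h array was as high as its 24 h array. It rose by 3.38 ± 0.25 log2 at 24 h (adjusted p = 6e-08, limma over 32768 probe sets). The second TRIB3 probe set rose by 1.15 ± 0.34 (adjusted p = 0.032), beside 1.14 for the first, with signals of 119.6 to 157.9 at 24 h, against 51.78 to 69.46 at 0 h. The second PSAT1 probe set had a difference of 0.75 ± 0.25 (adjusted p = 0.057), and the second SESN2 probe set 1.58 ± 0.53 (adjusted p = 0.061), and neither was called. SESN2's second probe set read 10.86 in untreated cells at 0 h, against 60.99 and 73.49 in the full-length and truncated series. At 48 h it read 71.92 in the full-length series, 178.4 in the truncated series and 108 in untreated cells. The second ASNS probe set was below the floor on all 9 arrays, between 0.5627 and 7.011, and gives no level. In all, 11 of the 14 member probe sets tested were called higher at 24 h, where 5.73% of all probe sets were. At 48 h 6 were called higher (2.83% of all), and 5 were called lower at 48 h than at 24 h (1.3% of all). Most of these are the probe sets that already stand for their genes. Of the second probe sets, only that of PPP1R15A was called at 48 h (2.67 log2, adjusted p = 4.7e-06, limma). Those of TRIB3 (0.62), PSAT1 (0.05) and SESN2 (1.61) were not. None was called lower from 24 to 48 h: PPP1R15A was at -0.72, PSAT1 at -0.70, TRIB3 at -0.53 and SESN2 at 0.03.

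Taking each series on its own, with no test possible between single arrays, most members stood above their 0 h array at 24 h with and without a construct. At 24 h, 4 members were 2-fold or more above the 0 h array in the full-length series, 6 in the truncated series and 4 in untreated cells. The share of all genes at that fold was 9.68%, 15.3% and 8.81% for these series in the same order. At 48 h the counts were 3, 2 and 3 (8%, 9.67% and 8.45% of all genes). The median log2 difference of the 10 members at 24 h was 0.96 with the full-length construct, 1.05 with the truncated construct and 0.98 in untreated cells. At 48 h it was 0.40, 0.43 and 0.79. DDIT3 differed from its 0 h array by 1.76 log2 at 24 h in the full-length series, 1.99 in the truncated series and 2.11 in untreated cells. Which series had the smallest 24 h difference varied by member. Full-length NRSF had it for DDIT3, for PSAT1 (0.55, against 1.15 untreated) and for TRIB3 (0.94, against 1 untreated). Truncated NRSF had it for ATF4 (0.73, against 0.95 untreated), SESN2 (1.24, against 1.53) and PPP1R15A (2.05, against 2.57). Untreated cells had it for DDIT4, CEBPB, CHAC1 and, narrowly, ASNS. DDIT4 differed by 1.07 in the full-length series, 1.01 in the truncated series and 0.58 in untreated cells, and CEBPB by 0.51, 0.76 and 0.39 in the same order. ASNS differed by 0.67, 0.96 and 0.66, and CHAC1 by 0.51, 0.96 and -0.09.

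**Figure D3:**
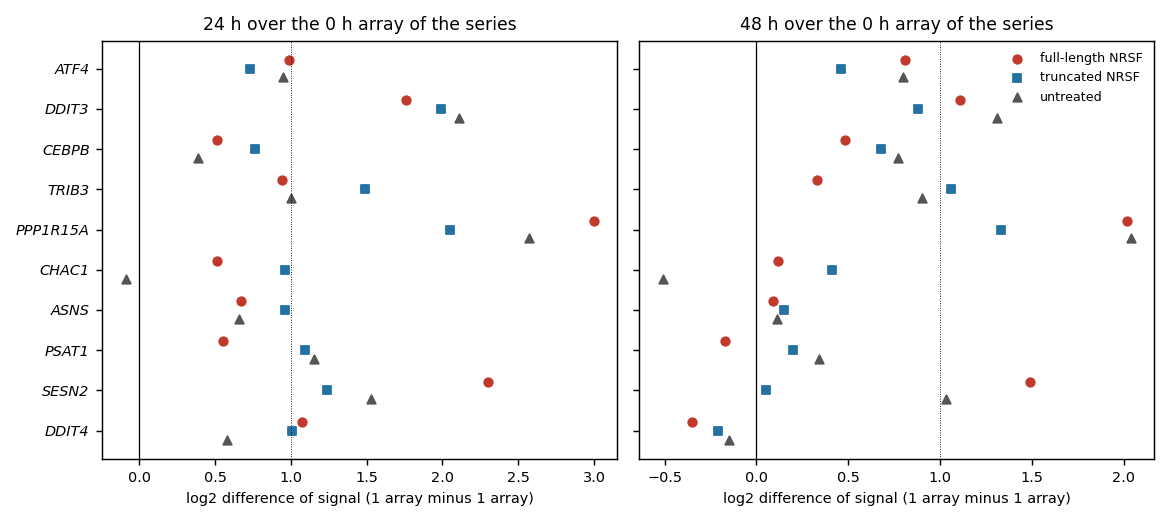
Log2 difference of each gene's signal from the 0 h array of its own series, at 24 h (left) and 48 h (right), 1 array minus 1 array, for full-length NRSF (red circles), truncated NRSF (blue squares) and untreated cells (grey triangles). The dotted line marks 2-fold. At 24 h every point is right of 0 except CHAC1 in untreated cells, at -0.09, and PPP1R15A spreads between 2.05 and 3.

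Each construct's change was then set against that of untreated cells, with 24 and 48 h as repeated readings of 1 effect. In limma's fit, 0 of 10 members were called for full-length NRSF, for truncated NRSF, or for full-length over truncated NRSF, where 0.00724%, 0.0362% and 0.0145% of all genes were called. At an unadjusted p under 0.05 the members' counts were 0, 0 and 2, beside 4.19%, 7.64% and 6.19% of all genes. The 2 were SESN2, higher with full-length than with truncated NRSF by 1.25 ± 0.54 log2 (unadjusted p = 0.034, adjusted p = 0.77), and PPP1R15A, 0.82 ± 0.32 log2 higher (unadjusted p = 0.020, adjusted p = 0.69). SESN2's value comes with a high truncated 0 h array, 150.4 against 53.69 in the full-length series. Under other settings it ran between 0.35 and 1.52 and was never called. The second SESN2 probe set went the other way at 48 h. It read 60.99, 81.07 and 71.92 at 0, 24 and 48 h in the full-length series, and 73.49, 101.3 and 178.4 in the truncated series. The second PPP1R15A probe set, given above, was higher with full-length NRSF at 24 and 48 h. A missed threshold does not show that the constructs did not act on these genes. The 2 residual degrees of freedom of this fit are not replicate cultures, so the intervals below do not measure the spread between cultures. For DDIT3 the 95% interval was -1.05 to 0.50 log2 for full-length NRSF and the same for truncated NRSF. For ATF4 the interval was -0.58 to 0.62 for full-length NRSF and -0.89 to 0.31 for truncated NRSF. CHAC1 had the widest, -1.28 to 2.51 for full-length and -0.91 to 2.88 for truncated NRSF.

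Upstream of the members, few genes of the eIF2 alpha kinases and phosphatase were called. Of 10 genes, 1 was called higher and 1 lower at 24 h, with a median of -0.19 log2, which is near the 8.04% higher and 8.2% lower of all genes. The counts of the lists below are read beside the same shares and were given no test of their own. These lists too were chosen with earlier results of these data known. PPP1R15B, the constitutive counterpart of PPP1R15A, rose by 0.64 (adjusted p = 0.0062), and EIF2AK1, the haem-sensing kinase HRI, fell by 0.60 log2 (adjusted p = 0.0066). The PPP1R15B call was lost without the truncated series (adjusted p = 0.071) and without untreated cells (0.085). That of EIF2AK1 was lost without untreated cells (0.097) and with the mean of its probe sets (-0.53, adjusted p = 0.063). Without the variance trend neither PPP1R15B (0.10) nor EIF2AK1 (0.088) was called. Among 10 genes of eIF2, its exchange factor eIF2B and related factors, 2 were called higher and 0 lower, with a median of 0.15. They were EIF5, which stimulates GTP hydrolysis on eIF2, at 0.79 (adjusted p = 0.00075), and EIF2S1, the eIF2 alpha subunit itself, at 0.66 (adjusted p = 0.0026), which with the mean of its probe sets was 0.16 and not called.

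Of 11 kept genes in the bZIP list, 6 were called higher and 1 lower at 24 h, with a median of 0.48. Of all genes, 8.04% were higher and 8.2% lower. The list holds bZIP factors that share partners and sites with ATF4 and CHOP, apart from CEBPZ. CEBPZ is not a bZIP factor, and it was 1 of the 6 called higher (0.48, adjusted p = 0.043). The 7 calls became 4 with the mean of all probe sets, 4 without the variance trend, and 3, 3 and 4 without the full-length, truncated and untreated series. ATF3, a repressor induced by ATF4 and by other stresses, rose by 3.36 log2 (adjusted p = 1.2e-05), or by 1.97 (adjusted p = 0.010) with the mean of its probe sets. FOSL1, an AP-1 subunit, rose by 1.56 (adjusted p = 5.8e-05), and CEBPG, a C/EBP dimer partner of ATF4, by 1.19 (adjusted p = 0.00089). At 48 h 1 of the 11 genes in the bZIP list was called higher and 1 lower, where 4.5% and 3.88% of all genes were. Among the 11 kept paralogues of the members, 4 were called higher and 2 lower at 24 h, where 8.04% and 8.2% of all genes were. The 6 calls became 3 without the truncated series. Of the genes called, CEBPG, ATF5, CEBPD and PPP1R15B were already counted in the lists above. The tribbles family moved in opposite directions: TRIB1 rose by 1.47 (adjusted p = 1.1e-05) and TRIB2 fell by 1.54 log2 (adjusted p = 6.4e-06), beside the rise of TRIB3. With the mean of its probe sets the TRIB1 change was 0.71 and not called.

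Of 22 other known ATF4 targets kept, 9 were called higher and 1 lower at 24 h, with a median of 0.45, where 8.04% and 8.2% of all genes were. At 48 h 8 were called higher and 0 lower, with a median of 0.49, where 4.5% and 3.88% of all genes were. The 8 calls at 48 h became 5 without any 1 series, 4 with no filter and 1 without the variance trend, and the 10 at 24 h became 6 without the variance trend. RND3, whose protein loosens the actin cytoskeleton, rose by 2.42 (adjusted p = 4.5e-08). SLC7A11, the cystine carrier of system xc-, rose by 1.98 (adjusted p = 5.3e-06), and STC2, the secreted protein stanniocalcin 2, by 1.89 (adjusted p = 2.7e-06). These 3 were also called at 48 h. Of 17 cytosolic aminoacyl-tRNA synthetases, which load tRNAs, 2 were called higher and 1 lower at 24 h, with a median of 0.10, near the 8.04% and 8.2% of all genes. FARSA, of the phenylalanine enzyme, was higher by 0.62 (adjusted p = 0.0075), and the calls of VARS1 (-0.72, adjusted p = 0.048) and YARS1 (0.46, adjusted p = 0.031) took the opposite sign, at 0.10 and -0.04, with the mean of all their probe sets. FARSA was not called without the full-length or the truncated series (adjusted p = 0.063 for each), and neither VARS1 nor YARS1 was called without the truncated series (0.42 and 0.088), without the untreated series (0.11 and 0.10), or without the truncated 24 h array (0.26 and 0.097).

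No other kept enzyme of serine, glycine and one-carbon metabolism was called in PSAT1's direction. PHGDH, of the serine pathway, had the largest 24 h change of these enzymes and narrowly missed the threshold (0.80 ± 0.29 log2, adjusted p = 0.072, limma). From 24 to 48 h PHGDH differed by -0.81 (adjusted p = 0.14), near PSAT1's fall. Of 11 kept, 0 were called higher and 1 lower at 24 h in limma's fit (3 at an unadjusted p under 0.05). Their median was -0.22, and 8.04% and 8.2% of all genes were called higher and lower. The called gene was MTHFD1, a cytosolic folate enzyme, at -0.48 (adjusted p = 0.042), not called without the full-length series (-0.29, adjusted p = 0.37), without the truncated series (-0.44, 0.17) or without the truncated 24 h array (-0.45, 0.13). The 1 call among these enzymes became 2 without the untreated series. The ATF6 and XBP1 arm of the unfolded protein response, which raises chaperones of the endoplasmic reticulum, had calls in both directions. Of 17 kept, 2 were called higher and 5 lower at 24 h (median -0.23), where 8.04% and 8.2% of all genes were. At 48 h 2 were called higher and 6 lower (median -0.44), where 4.5% and 3.88% of all genes were. Its 7 calls at 24 h became 4 without the untreated series, 4 with no filter and 1 without the variance trend, and its 8 calls at 48 h became 4 without the full-length series, 5 without the untreated series and 0 without the variance trend. ERN1, the sensor IRE1, rose by 1.29 (adjusted p = 0.00016), or by 0.52 and not called with the mean of its probe sets. PDIA4, a disulfide isomerase, fell by 1.13 log2 (adjusted p = 0.0041), or by 0.63 (0.041) without the truncated series and 0.64 (0.032) with the mean of its probe sets, and SDF2L1, a chaperone cofactor, fell by 1.04 log2 (adjusted p = 0.0022). In the sestrin and REDD1 pathway, 1 of 14 kept was called higher and 1 lower at 24 h, with a median of -0.12, near the 8.04% and 8.2% of all genes. TXNIP, which binds REDD1, rose by 1.27 at 24 h (adjusted p = 0.00011) and then fell by 1.53 log2 between 24 and 48 h (adjusted p = 0.00014), the shape also seen in DDIT4. WDR24, a subunit of the GATOR2 complex that sestrin 2 binds, was at -2.38 (adjusted p = 0.012), with a SE of 0.60, and was not called without the full-length series (-1.91, adjusted p = 0.15), without the truncated series (-2.01, 0.078) or without the truncated 24 h array (-1.93, 0.057). Its value was -1.46 with the floor at the 40th percentile and -1.57 with 16 added to the signal, and the gene was not kept under a filter at the 60th percentile.

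**Figure D4:**
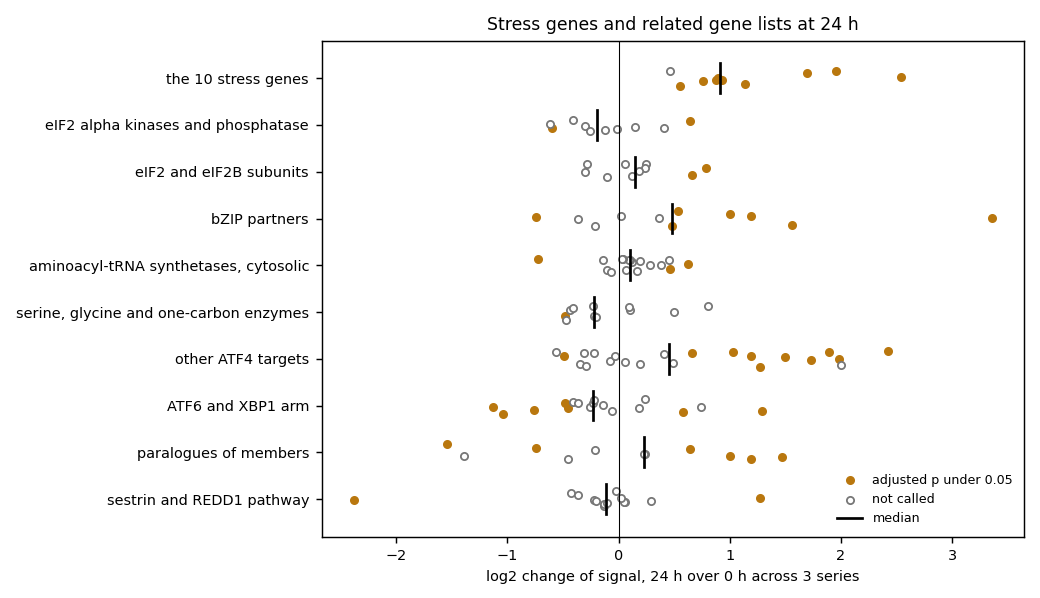
Fitted log2 change at 24 h over 0 h across the 3 series (x axis) for each gene of the 10 stress genes and of 9 related lists, with ochre points at an adjusted p under 0.05, open points not called, and a black bar at the median. The medians are 0.91 for the 10 genes, 0.48 for bZIP partners and 0.45 for other ATF4 targets, and between -0.23 and 0.23 for the other lists. The 9 lists share 7 genes, among them CEBPG, which is in 3.

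The genes whose signal moved most like that of DDIT3 over the 9 arrays were not members. Likeness was the root mean square difference of log2 signal after centring each gene on its own mean, with 13803 genes compared. Genes were not scaled, so the measure keeps the size of a change. A member with a smaller change than DDIT3 is therefore far from it even with the same shape. TSC22D1 was nearest at 0.16, followed by ODC1 at 0.17, BTG1 at 0.18, STC2 at 0.18 and OSER1 at 0.21. ODC1 encodes the first enzyme of polyamine synthesis, and BTG1 an antiproliferative protein. The nearest member was SESN2 at 0.36, in place 72. TSC22D1 had a 24 h change of 1.97 log2, or 0.79 and not called with the mean of its probe sets. For PPP1R15A, the member with the largest 24 h change, the nearest were SIK1 at 0.27, ODC1 and RND3 at 0.35, GABARAPL1 at 0.36 and TNFRSF12A at 0.37. SIK1 encodes a salt-inducible kinase, GABARAPL1 an autophagy protein and TNFRSF12A the receptor of the cytokine TWEAK. The nearest member was DDIT3 at 0.47, in place 34. SIK1's 24 h change was 2.49 log2, or 1.27 and not called with the mean of its probe sets. STC2 and RND3, among the nearest genes, are also in the list of other ATF4 targets above. The 9 values share arrays and time points, so closeness is a description of these arrays.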

How the data were processed

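RNA of SK-N-AS cells was read on 9 Affymetrix arrays, 1 per group. The deposited values are linear signal intensities, made by the authors with GCOS per the submitters' processing notes, with the version not given in the sources used here. The authors had scaled the arrays, as the mean after removing 2% at each end was 150.02 on each, and this was kept. A floor at the 25th percentile (8.266) was set before log2. Of 54675 probe sets, 41091 named 1 gene in the platform annotation and were used, 1801 named several, and 11721 were not in it. The probe set with the highest mean stood for its gene, and genes with a mean log2 signal above 4.2, the 40th percentile of probe sets, were kept. Such a filter, and 1 probe set per gene, can change calls.

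All tests were run in R 4.3.3 (data.table, version 1.17.8) with limma 3.58.1: lmFit and eBayes with a variance trend, two-sided, Benjamini-Hochberg over all genes, adjusted p under 0.05. The time fit held series and time (4 residual and 16.5 total degrees of freedom). The exposure fit added a term per construct at 24 and 48 h (2 and 16.3). The scripts were tested on simulated data. The description of the series speaks of triplicates and batches, but the labels give neither, so the number of arrays limits the precision and no batch could be tested.

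The members, lists and tests were chosen with earlier results of these data known. All members are named, and of each list the 3 called genes with the largest 24 h change. PHGDH, which was not called, is named as well. For DDIT3 and the member of largest 24 h change, the 5 nearest other genes are named. Genes of these lists without a probe set were not analysed here.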

Additional observations from a re-analysis of the deposited data

Results flagged for a closer look

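CHAC1, the glutathione-degrading enzyme, moved in opposite directions between series. At 24 h it was 0.51 log2 above its 0 h array in the full-length series and 0.96 above it in the truncated series, against -0.09 in untreated cells. At 48 h the differences were 0.12 (full-length) and 0.41 (truncated), against -0.51 in untreated cells. PSAT1, of serine synthesis, did so at 48 h, at -0.17 with full-length NRSF, against 0.20 with truncated NRSF and 0.34 in untreated cells. Each value is 1 array minus 1 array, and the difference at these single times was not tested. The fit that reads 24 and 48 h together gave CHAC1 0.61 ± 0.89 (full-length) and 0.98 ± 0.89 (truncated) against untreated cells (adjusted p = 1 and 0.86, limma), and PSAT1 -0.56 ± 0.33 and -0.10 ± 0.33 (adjusted p = 1 and 0.98). CHAC1 read 38.99 to 82.04 over the 9 arrays.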

How the results depend on the processing

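At 24 h the 9 calls became 5 without the variance trend and were 8 or 9 under every other setting. Higher calls at 48 h, 5 in the report, were 3 with no filter and 0 without the variance trend (6 at an unadjusted p under 0.05), and 2 to 4 when a series was left out (3 without full-length, 2 without untreated). Falls after 24 h, 5 in the report, were 0 with no filter and 0 without the variance trend (6 at an unadjusted p under 0.05 in each), 2 with the mean of all probe sets, 2 without the truncated 24 h array, and 0 to 2 when a series was left out (0, 2 and 1 without full-length, truncated and untreated). With no series block, the PPP1R15A fall was not called (adjusted p = 0.070) and 4 were. With the mean of all probe sets, truncated NRSF had 1 member 2-fold higher at 48 h, not 2. The cause was not tested.

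Genes called at 24 h were 2242, but 539 without the variance trend, 1264 with no filter, 1213 with the mean of probe sets, 890, 1377 and 1465 without the full-length, truncated and untreated series, and 1385 without the truncated 24 h array. At 48 h they were 1156, but 18, 394, 477, 212, 660 and 501 in the same order. From 24 to 48 h they were 483, but 0, 0, 175, 88, 197 and 188, and 201 without that array. The exposure fits called at most 5 genes each, and 8, 36 and 31 without that array, with 0 members.

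Values that took the opposite sign had missed the threshold, except those of VARS1 and YARS1 at 24 h and of ERN1 at 48 h. CEBPB was 0.05 for full-length NRSF and -0.07 for 48 over 24 h under quantile normalization, and -0.06 for 48 over 24 h without untreated. CHAC1 at 48 h was -0.05 without full-length and -0.19 without truncated. DDIT4 for full-length over truncated was 0.03 without the truncated 24 h array. With the mean of probe sets, full-length NRSF gave SESN2 -1.32 and TRIB3 0.21, ERN1 was -0.05 at 48 h, VARS1 0.10 at 24 h, and YARS1 -0.04 at 24 h and -0.26 at 48 h. Of the 24 h calls, ASNS was lost with the mean of probe sets (0.38, adjusted p = 0.32), which includes a probe set at the floor.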
